A study of Mus musculus with 36 samples.

Results

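The mature arms of 2 mouse microRNA hairpins linked to lymphocytes were followed through liver and epididymal white adipose tissue (eWAT): mmu-miR-150-5p, mmu-miR-150-3p, mmu-miR-342-3p and mmu-miR-342-5p, written below without the species prefix. They were chosen by name, with earlier results of these data known, and are 4 of the 1966 mature microRNAs (miRNAs) in the deposited count table. Each has a single line in it. Small RNA was sequenced from both tissues of male F1 mice, wild-type C57BL/6, aged 24 weeks. The series title concerns what fathers pass to their offspring. The groups were named LF, HF and HFLF, and each had 6 libraries per tissue, which makes 36 libraries. All the mice ate chow up to 6 weeks of age and then a set diet for 18 weeks. The diet tags read LFD, HFD and HFLFD, whereas the treatment protocol of every sample names LFD, so it cannot be told from the labels whether a group name is the diet of the mouse or of its father. The groups are therefore called by name only. The labels do not say that replicates came from separate mice, and all p-values therefore rest on the spread between the libraries, which may be technical.

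Mature miRNAs are cut from a hairpin by Drosha and Dicer, and 1 strand, the major arm, is usually loaded into Argonaute while the other is mostly degraded. miR-150 is abundant in mature B and T lymphocytes, where it restrains the transcription factor Myb. miR-342 lies in an intron of Evl, a gene for an actin-regulating protein, and is found in lymphoid and other immune cells. Liver and adipose tissue hold resident and passing lymphocytes, and neither miRNA is found in these cells alone.

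The sequences are shown because all counting rests on telling the 2 arms of a hairpin apart, and because the seed, bases 2 to 8, sets which transcripts a miRNA can pair with. Of the 4 arms, 3 matched an entry of the RefSeq table on GRCm38.p6, and these are printed 5′ to 3′ with the seed in capitals.
miR-150-3p: cUGGUACAggccugggggauag
miR-342-3p: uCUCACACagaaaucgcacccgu
miR-342-5p: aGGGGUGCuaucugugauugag
None of these 3 seeds was found in any other of the 1675 counted miRNAs that have a sequence there. The miR-342 hairpin below carries its arms in capitals, the 5p arm at bases 19 to 40 and the 3p arm at bases 61 to 83 of 99.
Mir342 hairpin: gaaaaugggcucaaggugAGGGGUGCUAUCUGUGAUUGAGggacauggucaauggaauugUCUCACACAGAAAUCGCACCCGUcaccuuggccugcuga
On GRCm38 the Mir150 hairpin lies on the plus strand of chromosome 7, from 45121757 to 45121821. In the GENCODE annotation no other gene overlaps it. Mir342 lies on the plus strand of chromosome 12, from 108658620 to 108658718, where 5 Evl transcripts of the same strand span it and no Evl exon overlaps it, so its place is intronic.

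Libraries held 7866583 to 18832842 miRNA counts in liver and 9066683 to 17714156 in eWAT. Liver LF replicate 4 and HF replicate 6 stood apart, with a count for 316 and 368 miRNAs against 540 to 633 in the other 16 liver libraries, and neither is in the authors' deposited liver table of log2 values. In eWAT, a list of 10 epithelial miRNAs summed to 19750 CPM (counts per 1000000 counts) in LF replicate 1 and 26900 CPM in LF replicate 4, against 82.0 to 383 CPM in the other 16 libraries. The labelled tissues were checked by their own miRNAs. A list of 5 hepatocyte miRNAs summed to 495100 to 595500 CPM in liver and 847.6 to 5092 CPM in eWAT. A list of 5 adipocyte and stromal miRNAs summed to 8554 to 19200 CPM in liver and 167500 to 265500 CPM in eWAT. Levels below are plain CPM, the count scaled to 1000000 miRNA counts of that library.

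miR-150-5p, the major arm, was far more abundant in eWAT than in liver. In eWAT its level in LF had a lowest value of 753 CPM, a median of 1578 and a highest of 3498. The corresponding values were 1252, 1712 and 1878 CPM in HF, and 1231, 1511 and 1779 CPM in HFLF. In liver they were 48.6, 81.5 and 109 CPM in LF, 49.1, 72.1 and 115 CPM in HF, and 72.0, 97.2 and 102 CPM in HFLF. The lowest eWAT library was thus well above the highest liver library, while the diet groups of each tissue overlapped. Ordered by mean ± SD (n = 6), the groups ran from eWAT LF at 1723 ± 932 CPM through eWAT HF at 1596 ± 254 and eWAT HFLF at 1494 ± 192 to liver HFLF at 92.9 ± 11.04, liver LF at 83.2 ± 23.5 and liver HF at 78.4 ± 24.9. Neighbours in this order lay within their spread except at the step between the tissues.

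miR-150-3p, the minor arm of the same hairpin, kept the tissue order at a much lower level. Its lowest, median and highest values in eWAT were 9.96, 20.2 and 41.4 CPM in LF, 14.2, 19.9 and 27.4 in HF, and 16.0, 17.4 and 22.7 in HFLF. Liver values were 0, 1.92 and 4.11 CPM in LF, 0, 1.14 and 2.77 in HF, and 0.771, 0.988 and 1.34 in HFLF. All the eWAT libraries again lay above all the liver libraries, and the diet groups overlapped. The zeros were those of liver LF replicate 4 and HF replicate 6, where a count of 0 allows up to 0.353 and 0.159 CPM. The group means were 22.5 ± 11.4 CPM in eWAT LF, 20.2 ± 4.65 in HF and 18.1 ± 2.50 in HFLF, and 1.92 ± 1.61, 1.28 ± 1.03 and 1.02 ± 0.240 in the same liver groups (SD, n = 6). Within a tissue no group stood off from its neighbours by more than this spread.

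miR-342-3p, the major arm of the intronic hairpin, also had more counts per library total in eWAT than in liver. Its lowest, median and highest levels in eWAT were 206, 269 and 463 CPM in LF, 197, 246 and 518 in HF, and 161, 213 and 277 in HFLF. In liver they were 49.6, 73.1 and 114 CPM in LF, 50.2, 73.6 and 82.8 in HF, and 62.7, 82.7 and 89.3 in HFLF. The tissues did not overlap, but the gap between the lowest eWAT and the highest liver library was small beside that of miR-150-5p. The order of means was eWAT LF at 292 ± 90.2 CPM, eWAT HF at 289 ± 118, eWAT HFLF at 213 ± 40.9, liver HFLF at 79.8 ± 9.84, liver LF at 78.7 ± 23.7 and liver HF at 69.6 ± 14.2 (SD, n = 6). Neighbours within a tissue overlapped, and the step between eWAT HFLF and liver HFLF exceeded the spread.

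miR-342-5p, the minor arm, was the member whose tissues overlapped. Its lowest, median and highest levels in eWAT were 10.7, 16.9 and 24.1 CPM in LF, 5.94, 16.0 and 27.2 in HF, and 9.34, 12.3 and 16.0 in HFLF. In liver they were 1.88, 4.69 and 7.45 CPM in LF, 0, 2.12 and 5.40 in HF, and 1.96, 4.04 and 5.07 in HFLF. A single eWAT library, at 5.94 CPM, fell below the highest liver library. The 0 was that of liver HF replicate 6, which allows up to 0.159 CPM. Means were 16.7 ± 5.09, 16.6 ± 7.64 and 12.4 ± 2.26 CPM in the LF, HF and HFLF groups of eWAT and 4.56 ± 2.17, 2.48 ± 1.84 and 3.91 ± 1.12 CPM in those of liver (SD, n = 6). The groups of a tissue overlapped in mean ± SD, though not every mean lay within the SD of every other group.

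**Figure D1:**
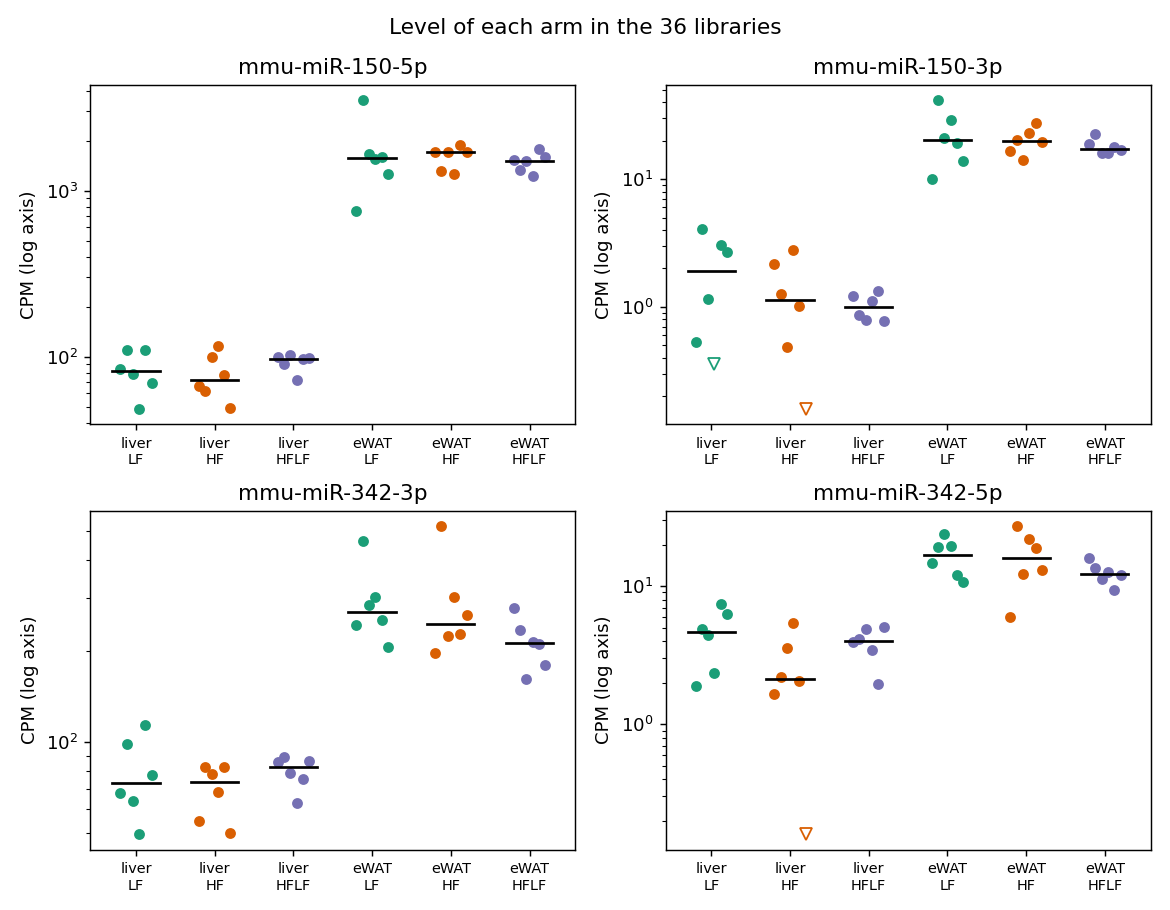
Level of each arm in CPM (log axis) in the 36 libraries, by tissue and diet group; points are libraries, bars group medians, and open triangles mark the limit of 3 counts in libraries at 0. In each panel the eWAT points sit above the liver points, except for miR-342-5p, where 1 eWAT library at 5.94 CPM falls into the liver range.

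By mean level over the 18 libraries of a tissue, miR-150-5p ranked 56 of the 1314 miRNAs with a count in eWAT and 130 of 1056 in liver. miR-342-3p ranked 121 in eWAT and 135 in liver. The minor arms ranked 264 (miR-150-3p) and 289 (miR-342-5p) in eWAT, and 374 and 300 in liver. These are ranks of counts, which also depend on how well each sequence is ligated.

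The comparison of eWAT with liver within a diet group asked how these arms differ between the tissues. miR-150-5p was higher in eWAT in all 3 diet groups, and so was its minor arm. miR-342-3p passed the test in LF and HF only, with smaller differences, and miR-342-5p in HF only. As a ratio of mean CPM over the 18 libraries of each tissue, eWAT exceeded liver 18.9-fold for miR-150-5p, 14.4-fold for miR-150-3p, 3.48-fold for miR-342-3p and 4.18-fold for miR-342-5p. Counts were tested with edgeR's quasi-likelihood test on scaling factors from the trimmed mean of M-values (TMM), and a miRNA was called at a Benjamini-Hochberg adjusted p below 0.05. That test called 3 of the 4 members in LF, where it called 47.4% of the 681 miRNAs tested, 4 in HF (49.6%) and 2 in HFLF (48.6%). In the direction of higher in eWAT the shares of all miRNAs were 31.4%, 32.0% and 29.4%. All 18 eWAT libraries lay above all 18 liver libraries in plain CPM for 3 members, and for 29.4% of the 681 miRNAs. In bulk tissue, fewer cells of a type and less RNA per cell cannot be told apart.

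Here and below, the ± of a fitted log2 fold change is its standard error, derived from the F statistic, and not an SD. For miR-150-5p the fitted log2 fold change of eWAT over liver was 3.06 ± 0.25 in LF (edgeR adjusted p = 7.26e-13), 3.18 ± 0.25 in HF (edgeR adjusted p = 2.47e-13) and 2.87 ± 0.25 in HFLF (edgeR adjusted p = 2.88e-12). By fitted fold it ranked 125, 138 and 135 of the 681 miRNAs in LF, HF and HFLF, so many miRNAs exceeded it. For miR-150-3p the log2 fold changes were 2.26 ± 0.62 (edgeR adjusted p = 0.00298), 2.78 ± 0.64 (edgeR adjusted p = 0.000445) and 3.01 ± 0.65 (edgeR adjusted p = 0.000211). Without liver LF replicate 4 and HF replicate 6, which held its zeros, miR-150-3p still differed by 1.94, 2.32 and 2.88 on the log2 scale, with edgeR adjusted p of 0.000173, 1.55e-05 and 1.96e-07.

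For miR-342-3p the log2 fold change was 0.60 ± 0.20 in LF (edgeR adjusted p = 0.0105), 0.87 ± 0.20 in HF (edgeR adjusted p = 0.000380) and 0.29 ± 0.20 in HFLF (edgeR adjusted p = 0.236, 95% interval -0.11 to 0.68). The LF call was lost without eWAT LF replicate 2 (0.39, edgeR adjusted p = 0.105). It was also lost when only the 2 groups compared were fitted (0.42, edgeR adjusted p = 0.158). For miR-342-5p the values were 0.59 ± 0.52 in LF (edgeR adjusted p = 0.361), 1.54 ± 0.53 in HF (edgeR adjusted p = 0.0156) and 0.54 ± 0.52 in HFLF (edgeR adjusted p = 0.413). The HF call was lost without liver HF replicate 1 or replicate 5, at 1.31 in either case (edgeR adjusted p = 0.0543 and 0.0542), and at 1.39 with only the 2 groups compared (edgeR adjusted p = 0.129). Whether the diet groups differ in these tissue effects was tested as an interaction, and no member passed it. The test called 2.5% of 681 miRNAs for HF against LF and 1.91% for HFLF against LF. These calls included 7 and 10 of the 10 listed epithelial miRNAs, all with a negative difference. Without eWAT LF replicates 1 and 4, which were high in that list, 0 miRNAs were called in either contrast. The member differences were 0.12, 0.52, 0.27 and 0.94 for HF against LF, and -0.19, 0.75, -0.32 and -0.05 for HFLF against LF, in the order miR-150-5p, miR-150-3p, miR-342-3p and miR-342-5p. In both contrasts every 95% interval of a member took in 0.

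The size of a tissue difference depended on the scaling. Under TMM the median miRNA was higher in eWAT by 0.60 in LF, 0.48 in HF and 0.27 in HFLF (log2), and under plain CPM by 1.87, 1.66 and 1.39. The members moved with it. A change of scaling factors shifts nearly every miRNA alike, so by construction their distance from the median miRNA hardly changed. miR-150-5p lay above that median by 2.47, 2.70 and 2.60 in LF, HF and HFLF under TMM, and by 2.50, 2.69 and 2.62 under plain CPM. For miR-150-3p the distances were 1.66, 2.30 and 2.74 under TMM. miR-342-3p lay 0.01, 0.39 and 0.01 above the median under TMM, and 0.02, 0.39 and 0.03 under plain CPM. miR-342-5p lay at 0.00, 1.06 and 0.27 from it under TMM. Relative to the median miRNA, the miR-150 arms were thus higher in eWAT in every diet group, whereas in LF and HFLF the difference of miR-342-3p was about that of the median miRNA. A scaling without factors also moved miR-342-3p in HFLF past the threshold (1.42, edgeR adjusted p = 1.68e-06), as did the size factors of DESeq2 (0.53, DESeq2 adjusted p = 0.0141).

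**Figure D2:**
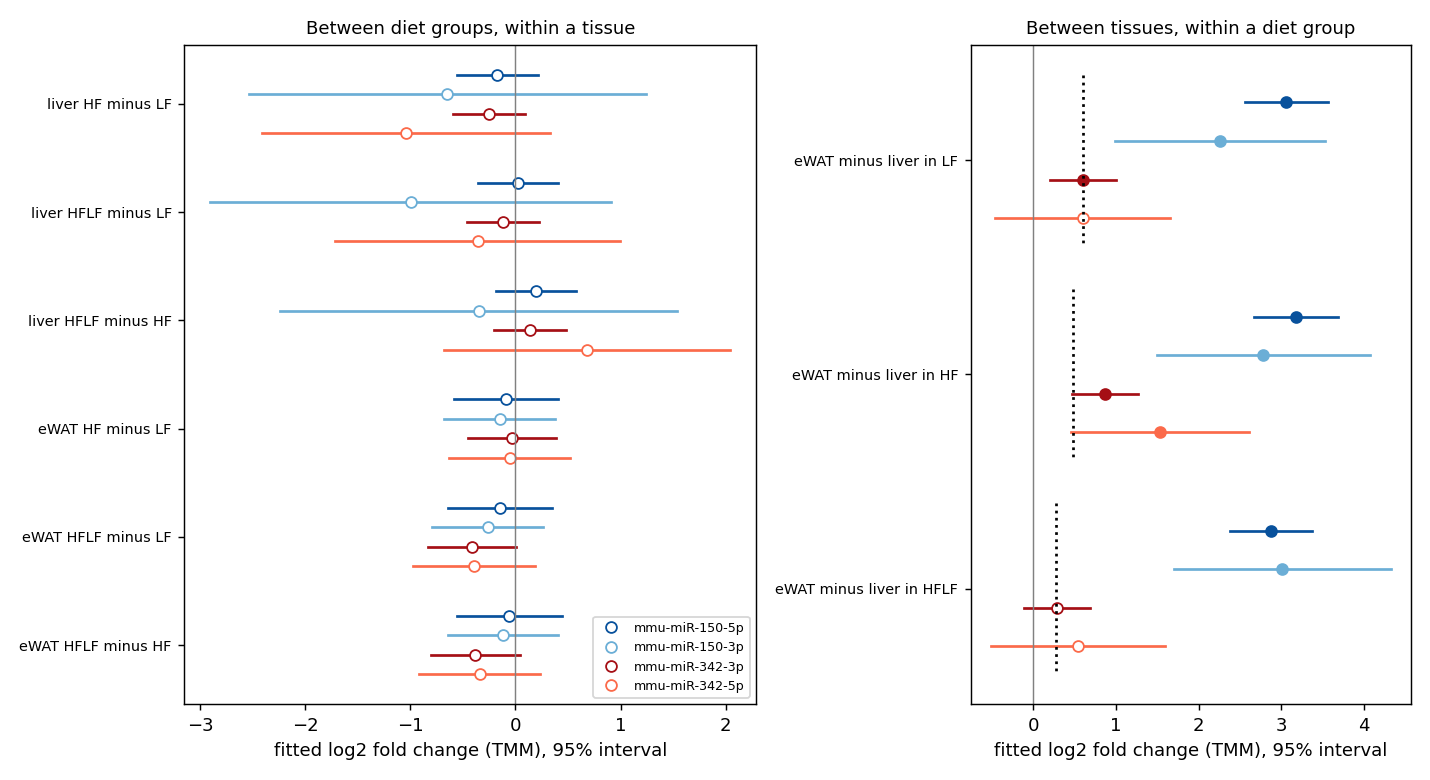
Fitted log2 fold changes under TMM with 95% intervals for the diet comparisons (left) and eWAT minus liver (right); filled circles passed an edgeR adjusted p of 0.05, and dotted lines mark the median of all 681 miRNAs tested between tissues. The miR-150 arms lie between 2.26 and 3.18, right of the dotted lines, those of miR-342-3p in LF and HFLF lie on them, and every diet comparison has open circles.

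The tissues differed in how the major arms of the 2 hairpins related to each other. Because ligation efficiency differs between miRNA sequences, a ratio of 2 miRNAs does not give their relative abundance, and it is compared here only from library to library, as a description. The ratio of miR-150-5p to miR-342-3p had a lowest value of 0.750, a median of 1.14 and a highest of 1.68 in liver. In eWAT it ran from 2.53 through a median of 6.24 to 9.30. The tissues did not overlap in this ratio. Since both arms come from the same library, the scaling does not enter it. The ratio restates the tissue differences of the 2 arms given above, and the ratios of other miRNA pairs were not examined. The group medians in eWAT were 6.01 in LF, 7.05 in HF and 7.09 in HFLF, with overlapping ranges.

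**Figure D3:**
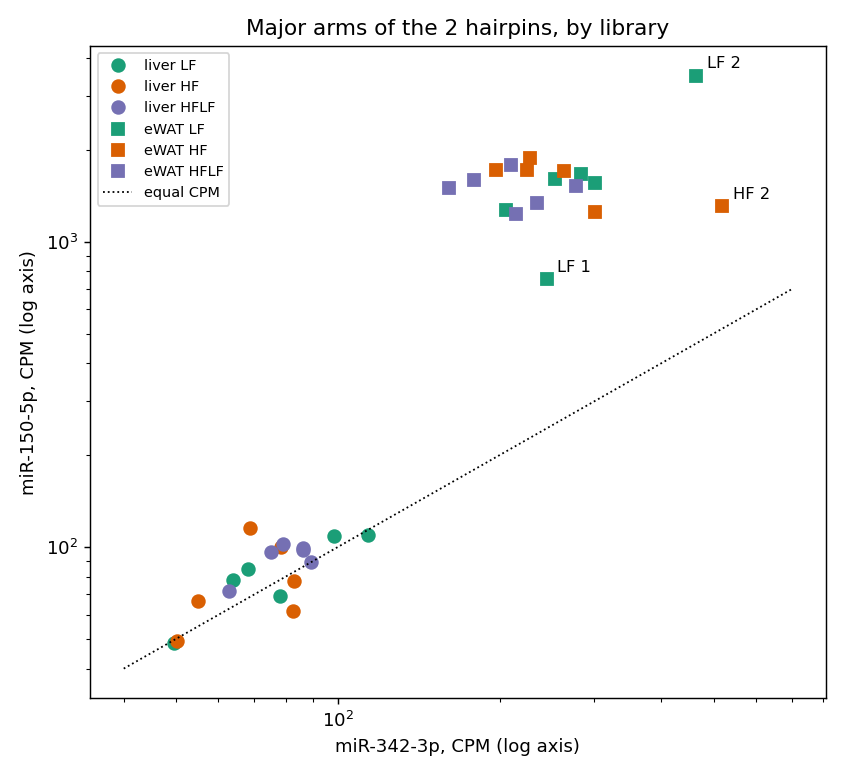
Level of miR-150-5p against miR-342-3p in each library, in CPM on log axes; circles are liver, squares eWAT, colours the diet groups, and the dotted line marks equal CPM. Liver libraries lie around the line (ratio 0.750 to 1.68) and eWAT libraries above it (2.53 to 9.30), with eWAT LF replicate 2 highest in miR-150-5p and eWAT HF replicate 2 highest in miR-342-3p.

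Across the 18 eWAT libraries the 2 arms of miR-342 moved together: Pearson's r was 0.697 (permutation p = 0.00122, 0.00711 after adjustment over the 6 relations computed) and Spearman's rho 0.783 (permutation p = 0.00019, adjusted 0.00114). Without the 2 libraries farthest from the median, HF replicate 2 and LF replicate 2, r was 0.677. The arms of miR-150 gave r = 0.707 in eWAT (permutation p = 0.00237, adjusted 0.00711) but rho = 0.381 (permutation p = 0.122, adjusted 0.154), and r fell to 0.122 without LF replicates 1 and 2. That relation therefore rests on these libraries. miR-150-5p and miR-342-3p gave r = 0.149 in eWAT (permutation p = 0.529, adjusted 0.529) and rho = -0.234 (permutation p = 0.346, adjusted 0.346), and without LF replicates 1 and 2 r was -0.416. In liver r was 0.458 for the miR-150 arms (permutation p = 0.0559, adjusted 0.0838), 0.399 for the miR-342 arms (permutation p = 0.114, adjusted 0.137) and 0.522 for the 2 major arms (permutation p = 0.0252, adjusted 0.0504). The liver rho values were 0.465 (permutation p = 0.0543, adjusted 0.109), 0.552 (permutation p = 0.0192, adjusted 0.0576) and 0.373 (permutation p = 0.128, adjusted 0.154), and none passed the adjustment. Without the 2 farthest libraries the liver r values were 0.440, 0.277 and 0.490. The CPM values of a library share its total.

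The share of the minor arm in the counts of both arms was low in every library. For miR-150 the 3p arm made up 1.27% ± 0.287 in eWAT (SD, n = 18, lowest 0.824%, median 1.20%, highest 1.84%) and 1.56% ± 1.15 in liver (n = 18, 0% to 3.73%, median 1.33%). For miR-342 the 5p arm made up 5.49% ± 1.25 in eWAT (2.94% to 7.82%) and 4.42% ± 1.95 in liver (0% to 7.44%). Pooled over libraries, the 5p arm of miR-150 had 81.0 counts for each 3p count in eWAT and 61.6 in liver, and the 3p arm of miR-342 had 17.6 and 21.2 for each 5p count. For each hairpin the ranges of the tissues overlapped. The shares of the 2 hairpins are not compared, since ligation differs between sequences.

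The zeros again belonged to the liver libraries that stood apart. In LF replicate 4 none of the 413 miR-150 counts was from the 3p arm, which allows a share of up to 0.726%, and in HF replicate 6 none of 925, which allows up to 0.324%. For miR-342 none of 945 counts in HF replicate 6 was from the 5p arm, which allows up to 0.317%. The other 16 liver libraries held 0.478% to 3.73% of miR-150-3p and 2.41% to 7.44% of miR-342-5p. The limits of HF replicate 6 lie below both ranges, and they cover counting error only. Without this pair the median shares in liver were 1.40% and 4.60%.

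**Figure D4:**
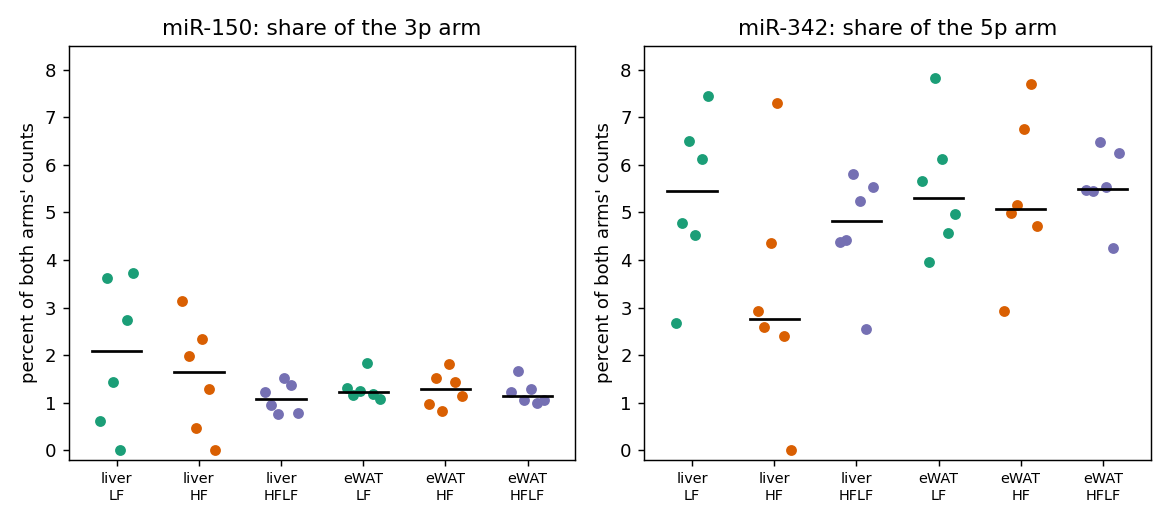
Share of the minor arm in the counts of both arms (percent) by library, tissue and diet group, with group medians as bars; left miR-150-3p, right miR-342-5p. The points at 0 are liver LF replicate 4 and liver HF replicate 6, and the eWAT points of miR-150 lie between 0.824% and 1.84%.

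Between diet groups within a tissue, no member passed the test in liver or in eWAT. edgeR called 0 of 478 liver miRNAs (0.0%) and 0 of 638 eWAT miRNAs (0.0%) in each of the 3 comparisons. Under an unadjusted p of 0.05 were 16, 14 and 5 in liver and 49, 98 and 21 in eWAT, for HF against LF, HFLF against LF and HFLF against HF. DESeq2 called 16 miRNAs for HF against LF and 31 for HFLF against LF in eWAT and 0 elsewhere, and limma called 0 in all 6. For HFLF against LF in eWAT, edgeR called 12 miRNAs without LF replicate 2, 15 without LF replicate 5 and 17 without LF replicate 6. No member was among any of these calls. Without eWAT LF replicates 1 and 4, high in epithelial miRNAs, edgeR called 0 in each eWAT comparison. The miRNAs with an unadjusted p below 0.05 in edgeR then numbered 13, 46 and 32, in the order above.

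The lowest p of a member was that of miR-342-3p between HFLF and LF in eWAT, at a log2 difference of -0.42 ± 0.20 (edgeR adjusted p = 0.325, unadjusted 0.0527, 95% interval -0.83 to 0.01). For HFLF against HF it was -0.38 ± 0.20 (edgeR adjusted p = 0.997), and for HF against LF -0.03 ± 0.20 (edgeR adjusted p = 0.976). The 5p arm of the hairpin gave -0.39 ± 0.28, -0.34 ± 0.28 and -0.05 ± 0.28 in the same comparisons, which share their libraries pairwise and are not independent. None passed. For miR-150-5p in eWAT the differences were -0.15 ± 0.24, -0.06 ± 0.24 and -0.09 ± 0.24, and for miR-150-3p -0.27 ± 0.25, -0.12 ± 0.25 and -0.15 ± 0.25. The 95% interval of miR-150-5p between HF and LF ran from -0.59 to 0.41, so differences within that range were not resolved.

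In liver the differences of HF against LF were -0.17 ± 0.18 for miR-150-5p, -0.65 ± 0.90 for miR-150-3p, -0.25 ± 0.17 for miR-342-3p and -1.04 ± 0.66 for miR-342-5p (edgeR adjusted p = 0.998 for each). For HFLF against LF they were 0.03, -0.998, -0.12 and -0.36, and for HFLF against HF 0.20, -0.35, 0.14 and 0.68, in the same order. The minor arms had the widest intervals, for miR-342-5p -2.41 to 0.33 between HF and LF. Their liver counts ran from 0 to 42 for miR-150-3p and from 0 to 98 for miR-342-5p, against 413 to 1779 for miR-150-5p.

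Some of the small diet differences in eWAT changed sign with a single library. eWAT LF replicate 2 held miR-150-5p at 3498 CPM, where the other 5 LF libraries lay between 753 and 1667. Without it the HF and LF difference was 0.18 for miR-150-5p, 0.05 for miR-150-3p and 0.08 for miR-342-3p, and the HFLF and LF difference of miR-150-5p was 0.11, none past the threshold in edgeR. The HFLF and LF difference of miR-150-3p stayed negative over the 12 single libraries left out (-0.458 to -0.082), and none of these values passed either.

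Other lymphocyte-linked miRNAs did not share 1 tissue pattern. Of a list of 9, edgeR called 3 higher and 4 lower in eWAT in each diet group. The higher ones were miR-181a-5p, which tunes T-cell receptor signalling (1.82 ± 0.15 in LF, edgeR adjusted p = 1.32e-12), miR-181b-5p (1.72 ± 0.17) and miR-155-5p, an activation-induced miRNA of lymphocytes and macrophages (1.99 ± 0.30). The lower ones came from the miR-17-92 family, which drives proliferation in many cell types, among them miR-92a-3p (-1.74 ± 0.26). The list's median was -0.98 in LF, -1.01 in HF and -0.73 in HFLF, beside 0.60, 0.48 and 0.27 over all miRNAs tested. Its summed level was 6604 to 10860 CPM in eWAT and 2173 to 7317 CPM in liver, and none of the 9 was at 0 in any library. Liver LF replicate 4 (2173 CPM) and HF replicate 6 (2488 CPM), which stood apart, were lowest, and the next liver library was at 5693 CPM. These directions are those under TMM. In plain mean CPM over the 18 libraries of a tissue, miR-92a-3p was at 3262 in eWAT and 5008 in liver and miR-17-5p at 51.9 and 56.5. miR-181a-5p was at 2987 and 344 CPM and miR-155-5p at 268 and 33.5 CPM.

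Of 8 miRNAs of leukocytes, myeloid cells and macrophages, 7 were tested, and edgeR called 4 higher and 0 lower in LF, 4 and 1 in HF, and 3 and 0 in HFLF. In LF the higher ones included miR-146b-5p (3.49 ± 0.25) and miR-223-3p, the granulocyte and monocyte miRNA (0.95 ± 0.29). Not called in LF were miR-142a-3p (0.19 ± 0.37), miR-511-3p (-0.80 ± 0.41) and miR-511-5p (-0.34 ± 0.63). The list's median was 0.95 in LF, 0.95 in HF and 0.45 in HFLF, beside 0.60, 0.48 and 0.27 over all miRNAs tested. The list summed to 1670 to 5879 CPM in eWAT and 260 to 593 CPM in liver, so its tissues did not overlap. In eWAT miR-146b-5p weighed most in this sum, at a mean of 2354 CPM, before miR-223-3p at 617 and miR-142a-5p at 536. The sum is in plain CPM, under which the median miRNA was also higher in eWAT. The miR-147-3p row, which was not tested, was at 0 in 17 liver and 7 eWAT libraries. Of 5 erythroid miRNAs, among them miR-451a and miR-486a-5p, edgeR called 0 in each diet group, and their summed levels were 2448 to 8165 CPM in eWAT and 837 to 3415 CPM in liver. The part of blood or of any cell type in the members' tissue difference was not tested. Within a tissue edgeR called none of these 3 lists' miRNAs between diet groups.

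In the eWAT library highest in miR-150-5p, many but not all leukocyte miRNAs were above those of its group. In LF replicate 2, the leukocyte list summed to 5399 CPM against 2725 to 3886 in the other LF libraries, and the lymphocyte-linked list to 10860 against 6604 to 8953. miR-142a-5p, a miRNA of all blood lineages, was at 1405 CPM there against 281 to 618, and miR-155-5p at 674 against 168 to 307. By contrast, miR-511-5p of the leukocyte list was the lowest of its group, at 14.6 CPM against 18.2 to 32.8. In the lymphocyte-linked list miR-17-5p, miR-18a-5p, miR-19b-3p, miR-20a-5p and miR-181b-5p lay within the range of the other LF libraries. eWAT HF replicate 2 held the highest miR-342-3p of its group, at 518 CPM against 197 to 302. Its miR-150-5p, at 1309 CPM, lay within the range of the other HF libraries (1252 to 1878), as did the leukocyte sum of 5041 CPM (2822 to 5879). The highest leukocyte sum of any eWAT library, 5879 CPM, was that of HF replicate 4, whose miR-150-5p was the lowest of its group at 1252 CPM. What set these libraries apart was not tested.

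The miRNAs whose levels followed the members most closely over the 18 libraries of a tissue were taken by Spearman's rho of log2 CPM, with no p, among miRNAs averaging at least 10 CPM. In eWAT miR-150-5p was followed by miR-30c-5p (rho 0.725), miR-143-5p (0.678), miR-378a-5p (0.620), miR-361-5p (0.616) and miR-345-5p (0.614), out of 332 candidates with a median rho of -0.01. miR-342-3p was followed by miR-221-3p (0.723), miR-340-5p (0.695), miR-652-3p (0.672), miR-361-3p (0.631) and miR-222-3p (0.598). No miRNA was in both lists, and none was in the lymphocyte-linked or leukocyte lists. With 5 named out of 332 candidates, few such matches could occur by chance, so nothing is read from their absence. In liver the closest were miR-874-3p (0.674), miR-139-5p (0.608), let-7j (0.593), miR-191-5p (0.585) and miR-5099 (0.556) for miR-150-5p. For liver miR-342-3p they were miR-106b-3p (0.670), miR-351-5p (0.657), miR-149-5p (0.618), miR-484 (0.602) and miR-664-5p (0.577), out of 220 candidates. The lists of the 2 tissues had no miRNA in common, and for the same reason nothing is read from this. As the libraries share totals and scaling, these values describe likeness only.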

How the data were processed

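Small RNA of 18 liver and 18 eWAT libraries was counted. The submitters' processing notes name cutadapt, Bowtie and the build GRCm38.p6. Tool versions, the handling of random adapter bases and the miRNA annotation: not given in the sources used here. Raw counts were deposited by the authors in 2118 lines, 1 per pair of mature miRNA and precursor, for 1966 mature miRNAs, 87 of them with several lines, beside CPM columns that were not used here. The highest line per miRNA was taken. The authors also deposited log2 CPM per tissue, for 180 miRNAs in 18 eWAT and 171 in 16 liver libraries. They were used only to see which libraries and members they list (miR-150-5p and miR-342-3p). Columns were matched to samples by letters alone (L liver, W eWAT, C for LF, H for HF, R for HFLF), with 0 columns unmapped.

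Tests on the counts used edgeR 4.0.16 in R 4.3.3 (TMM, filterByExpr with a minimum count of 10 and total of 15, robust quasi-likelihood F test, Benjamini-Hochberg adjusted p under 0.05). Each tissue's 18 libraries were fitted together for diet groups, and all 36 for tissues and interactions. Alternatives were DESeq2 1.42.0, limma 3.58.1, other scalings, no filter, summed lines, only the groups compared, a replicate block and left-out libraries. Permutation tests of correlations drew 100000 permutations and were 2-sided. The code was tested on simulated counts. Members are named throughout, with the 5 miRNAs most like each major arm per tissue and up to 3 of the most abundant per list. Other list miRNAs, and those beside the libraries that stood apart, were named after their values were seen. The members and lists were chosen with earlier results of these data known. The 95% intervals of fold changes rest on the spread between libraries. Floors of 3 counts and limits of arm shares cover counting error only, because PCR reads are not independent molecules.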

Additional observations from a re-analysis of the deposited data

Results flagged for a closer look

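In 24 groups of 6 libraries (4 arms in 6 groups), Dixon's test on plain CPM flagged a library in 3. It divides the gap to the next library by the range, with a critical value of 0.625. Its rate of about 1 in 20 groups assumes independent, normally distributed groups, and the 4 arms share libraries. No excess over chance is therefore read from these 3. The flagged values were miR-150-5p at 3498 CPM and miR-342-3p at 463.4 CPM (gap over range 0.629) in eWAT LF replicate 2, and miR-342-3p at 518.2 CPM in eWAT HF replicate 2. In the first library miR-150-5p was 2.25 times the median of the other 5, miR-150-3p 2.15 times and miR-342-3p 1.83 times. In the second, miR-342-3p was 2.27 times and miR-342-5p 2.09 times that median, and miR-150-5p 0.764 times. There miR-470-5p (14.3 times), the 3p arms of miR-465a, miR-465b and miR-465c (10.6 times each), which are near-identical and may share reads, and miR-871-3p (9.46 times) were raised most.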

How the results depend on the processing

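Over the alternatives, miR-150-5p and miR-150-3p stayed called higher in eWAT in all 138 of their tissue values (log2 1.94 to 4.37, highest adjusted p 0.0398), and no diet comparison of a member passed (lowest adjusted p 0.117). In eWAT minus liver, miR-342-3p in HFLF passed with RLE factors (0.53), plain CPM (1.42) and DESeq2 (0.53), and miR-342-5p passed with plain CPM in LF (1.87) and HFLF (1.67). Calls were lost for miR-342-3p in LF (0.42) and miR-342-5p in HF (1.39) with only the groups compared, and at 0.39 and 1.20 without eWAT LF 2 and HF 2, a setting chosen after seeing the data. Over left-out single libraries they ran from 0.39 to 0.74 and from 1.28 to 1.95. The cause of these changes was not tested.

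Signs turned for values near 0. For liver HFLF minus LF, miR-150-5p was -0.012 with RLE factors and with DESeq2 and -0.037 without liver LF 4 and HF 6 (-0.049 to 0.126 over single libraries), and miR-342-3p was 0.021 under plain CPM. For HFLF minus HF in liver, miR-150-3p was 0.16 in limma. For eWAT HF minus LF, miR-150-5p was 0.023 in limma and 0.25 without eWAT LF 2 and HF 2, where miR-150-3p was 0.079, and miR-342-5p was 0.003 without eWAT LF 1 and LF 4. Over single libraries these ran from -0.282 to 0.181 for miR-150-5p, -0.339 to 0.053 for miR-150-3p, -0.26 to 0.081 for miR-342-3p and -0.241 to 0.079 for miR-342-5p. For eWAT HFLF minus LF, miR-150-5p was 0.11 without eWAT LF 2 and HF 2 (-0.34 to 0.11 over single libraries).

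In the interaction of HF minus LF, miR-150-5p was -0.025 under plain CPM, -0.011 with only the groups compared and without liver LF 4 and HF 6, and -0.085 without eWAT LF 1 and LF 4 (-0.17 to 0.27 over single libraries). In that of HFLF minus LF it was 0.028 without eWAT LF 2 and HF 2 (-0.41 to 0.03), and miR-342-5p ran from -0.239 to 0.092. The 17 calls of the first interaction became 29 in DESeq2, 6 with no filter, 9 without eWAT LF 2 and HF 2, 4 to 20 over single libraries, and 0 in limma, with only the groups compared, without eWAT LF 1 and LF 4 and under the replicate block. The 13 of the second became 21 in DESeq2, 5 to 17 over single libraries and 0 in those same 4 settings. In eWAT, where edgeR called 0, DESeq2 called 16 miRNAs for HF minus LF and 31 for HFLF minus LF, and edgeR called 0 to 17 for the latter over single libraries left out. Without eWAT LF 1 and LF 4 edgeR called 0 in both.

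Of 54 pairs of same-numbered libraries, 10 had a correlation of their deviations above 0.1 (-0.288 to 0.275). Such weak correlations cannot tell whether equal numbers mark the same mouse, which the labels do not say. The main tissue tests treated the libraries as unpaired. With the number as a replicate block, miR-150-5p differed between the tissues in LF by 2.98, and no member's call changed. In liver the counts of the minor arms, 0 to 98, limit what could be resolved.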
